A study of Mus musculus with 18 samples.

Results

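The 10 genes examined encode enzymes and partners of histone methylation and Polycomb repression. They were *Ezh2*, *Eed* and *Suz12* of Polycomb repressive complex 2 (PRC2), *Rnf2* of Polycomb repressive complex 1 (PRC1), *Asxl3*, the histone H3 lysine 9 (H3K9) methyltransferases *Setdb1* and *Ehmt2*, the H3K4 methyltransferase *Kmt2b*, and the demethylases *Kdm1a* and *Kdm1b*. They were found by gene symbol in the table of TPM values (a level per transcript length, scaled to the library) and by Ensembl identifier in the table of read counts, and are 10 of 53715 genes with counts and of 28252 genes with TPM. *Asxl3* was chosen by its differences between groups of these same libraries at several stages, so its values are given as a description and no test was made of it. Tests and counts of called genes therefore cover the other 9, and descriptions of levels cover all 10 unless 9 are named.

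RNA was measured in 18 libraries of mouse oocytes of strain C57Bl/6j x CBA/J, 3 in each of 6 groups. Oocytes of primordial and of primary follicles were isolated from tissue sections with a laser (laser capture microdissection, LCM), and the RNA of oocytes of one stage was pooled over the LCM caps at extraction. For these stages the *in vitro* group came from ovaries of 7-day-old mice cultured for 7 days, and the *in vivo* group from ovaries of 14-day-old mice that were not cultured. Metaphase II (MII) oocytes of the *in vitro* group came from follicles isolated from cultured ovaries, grown in alginate beads for another 12 days and induced to ovulate with human chorionic gonadotropin (hCG), and those of the *in vivo* group from superovulated adult mice. Each MII library was made from 10 oocytes. The labels name no deletion or transgene in any group. The ovaries for LCM were fixed in paraformaldehyde, embedded in paraffin and stained, and no fixation is described for MII oocytes. The LCM RNA was amplified and made into libraries with another kit than the MII RNA, which was prepared by the Smart-seq II method. Stage therefore cannot be told apart from fixation and library preparation between LCM and MII oocytes, and no test compared them. Nothing in the sources used here says whether the 3 libraries of a group came from separate animals, so p-values measure the spread between these libraries, which may be technical.

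PRC2 places methyl groups on lysine 27 of histone H3, with EZH2 as its catalytic subunit, EED as the subunit that binds the methylated tail and SUZ12 as the scaffold. PRC1 attaches ubiquitin to histone H2A through RNF2 (RING1B), and ASXL proteins are partners of BAP1, the deubiquitinase that removes this mark. SETDB1 and EHMT2 (G9a) methylate H3K9, KMT2B (MLL2) methylates H3K4, and KDM1A (LSD1) and KDM1B (LSD2) remove methyl groups from H3K4. In mouse oocytes KMT2B and KDM1B are known for roles in setting H3K4 methylation and maternal DNA methylation marks during growth.

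Promoter windows of RefSeq (GRCm38.p6), each 300 bases long with 250 bases before and 50 bases after an annotated start, were matched for 8 of the 10 genes, with a pair of windows for *Ehmt2*. The 3 windows shown belong to *Rnf2*, the gene with the highest mean level over the LCM libraries, and to *Ezh2* and *Kdm1a*, the pair whose levels were most correlated over the LCM libraries. They were chosen after these values were seen. Each is printed 5′ to 3′ on the strand of the gene, with every CpG dinucleotide in capitals. The *Rnf2* window is chr1:151500942-151501241 (minus strand), the *Ezh2* window chr6:47594981-47595280 (minus strand) and the *Kdm1a* window chr4:136602674-136602973 (minus strand).
Rnf2: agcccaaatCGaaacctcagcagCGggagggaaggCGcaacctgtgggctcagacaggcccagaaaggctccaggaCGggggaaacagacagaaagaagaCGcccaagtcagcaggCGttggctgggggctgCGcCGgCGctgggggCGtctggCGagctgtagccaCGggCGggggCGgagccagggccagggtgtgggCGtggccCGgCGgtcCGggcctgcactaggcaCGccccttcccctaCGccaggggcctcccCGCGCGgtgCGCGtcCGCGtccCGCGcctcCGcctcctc
Ezh2: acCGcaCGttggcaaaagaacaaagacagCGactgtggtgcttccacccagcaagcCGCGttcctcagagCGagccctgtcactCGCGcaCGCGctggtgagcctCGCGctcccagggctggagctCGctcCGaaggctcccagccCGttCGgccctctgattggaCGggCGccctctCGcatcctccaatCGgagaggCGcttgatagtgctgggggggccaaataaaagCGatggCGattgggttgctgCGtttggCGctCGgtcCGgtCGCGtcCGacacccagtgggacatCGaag
Kdm1a: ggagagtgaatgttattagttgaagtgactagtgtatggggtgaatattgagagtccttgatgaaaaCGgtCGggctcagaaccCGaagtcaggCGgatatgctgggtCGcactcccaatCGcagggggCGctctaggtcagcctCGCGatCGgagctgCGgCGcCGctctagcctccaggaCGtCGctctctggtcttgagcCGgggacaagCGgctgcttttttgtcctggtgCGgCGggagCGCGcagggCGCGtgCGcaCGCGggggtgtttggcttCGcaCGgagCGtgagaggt

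Each of the 9 windows held more CpG than the median window. The *Rnf2* window held 30 CpG dinucleotides, the *Ezh2* window 31 and the *Kdm1a* window 29. Over the 9 windows the number ran from 15 in *Setdb1* to 41 in *Suz12*, and the median over the 32851 windows of all genes was 7 (quartiles 3 and 20). The *Setdb1* window and that of *Eed*, with 17, lay under the upper quartile. The TATA box (TATAAA, either strand) was in none of these genes' windows and in 13.6% of all windows. The CCAAT box (CCAAT, either strand), which the factor NF-Y binds, was in the windows of 5 of the 8 genes, *Setdb1*, *Kdm1a*, *Ezh2*, *Eed* and *Suz12*, and in 37.4% of all windows. The E2F motif was searched only as TTTCGCGC or TTTGGCGC (either strand), and other forms of it were not searched. The forms searched were in the *Ezh2* window alone among the 8 genes and in 0.813% of all windows. The palindromic NRF1 motif was in none of the 8 and in 0.971% of all windows. These matches describe the letters of the windows.

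The files gave 15149564 to 29205503 counts in an LCM library and 7334817 to 9978830 in an MII library. The floor was set at 3 counts, and 4842 to 11710 genes lay over it in an LCM library against 13238 to 15488 in an MII library. The summed level of 12 oocyte markers was 50.6 to 1632 TPM in the LCM libraries and 6633 to 15879 TPM in the MII libraries, with 10 to 12 of the markers over the floor in each library. *Ddx4*, *Dazl*, *Zp2*, *Zp3*, *Gdf9*, *Nobox*, *Kit*, *Ooep* and *Nlrp5* were over the floor in all 18. *Figla* was over it in 11 of 12 LCM and 3 of 6 MII libraries, *Bmp15* in 7 and 6, and *Sohlh1* in 9 and 0. The LCM libraries also held reads of markers of other ovarian cells. The summed level of 11 granulosa cell markers was 59.1 to 2613 TPM, and that of 10 theca and stroma markers 453 to 29938 TPM. Of the latter 10, *Col1a1*, *Col1a2*, *Col3a1* and *Dcn* were over the floor in 12 of 12 LCM libraries. *Pdgfra* was over it in 10, *Acta2* in 9, *Lum* in 8, *Cyp11a1* and *Star* in 2 each and *Cyp17a1* in 1. In the MII libraries these sums were 30.3 to 76.6 TPM and 1.30 to 5.02 TPM. The granulosa marker with the highest MII means was *Cyp19a1*, 40.6 TPM *in vivo* and 33.3 TPM *in vitro*. It was over the floor in 1 of 12 LCM libraries. In MII oocytes *Cyp19a1*, *Kitl* and *Nr5a2* were over the floor in 6 of 6 libraries, *Fshr* in 4, *Inhba* in 3 and *Inha* in 2. *Foxl2*, *Amh*, *Fst*, *Amhr2* and *Wt1* were over it in 0. Of 4 endothelial markers the sum reached 69.7 TPM in an LCM and 98.3 TPM in an MII library, and of 4 immune markers 14.2 and 24.9 TPM, with *Ptprc* and *Adgre1* at 0 in every library. The granulosa sum moved with condition at the primary stage, from 496 to 946 TPM *in vivo* and from 1159 to 2613 TPM *in vitro*. The part of these cells in the results was not tested. In such bulk libraries fewer cells of a type and less RNA per cell cannot be told apart.

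The 9 genes other than *Asxl3* were found at both early stages and in MII oocytes, but in the LCM oocytes their levels differed widely between libraries of a group. In the LCM libraries 6 of the 9 genes were over the floor in all 12 libraries, as were 12.2% of the 15317 genes tested. In the MII libraries 8 of 9 were over the floor in all 6, as were 60.6% of the 17144 genes tested. In 15 of the 36 pairs of a gene and an LCM group the highest library had at least 10 times the TPM of the lowest, against 1 of 18 pairs in MII oocytes, *Ehmt2* in the *in vivo* group. The median coefficient of variation within a group was 82.8% for the 9 genes in the LCM libraries and 30.7% in the MII libraries. Over all genes with a mean of at least 1 TPM it was 127% and 43.7%.

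**Figure D1:**
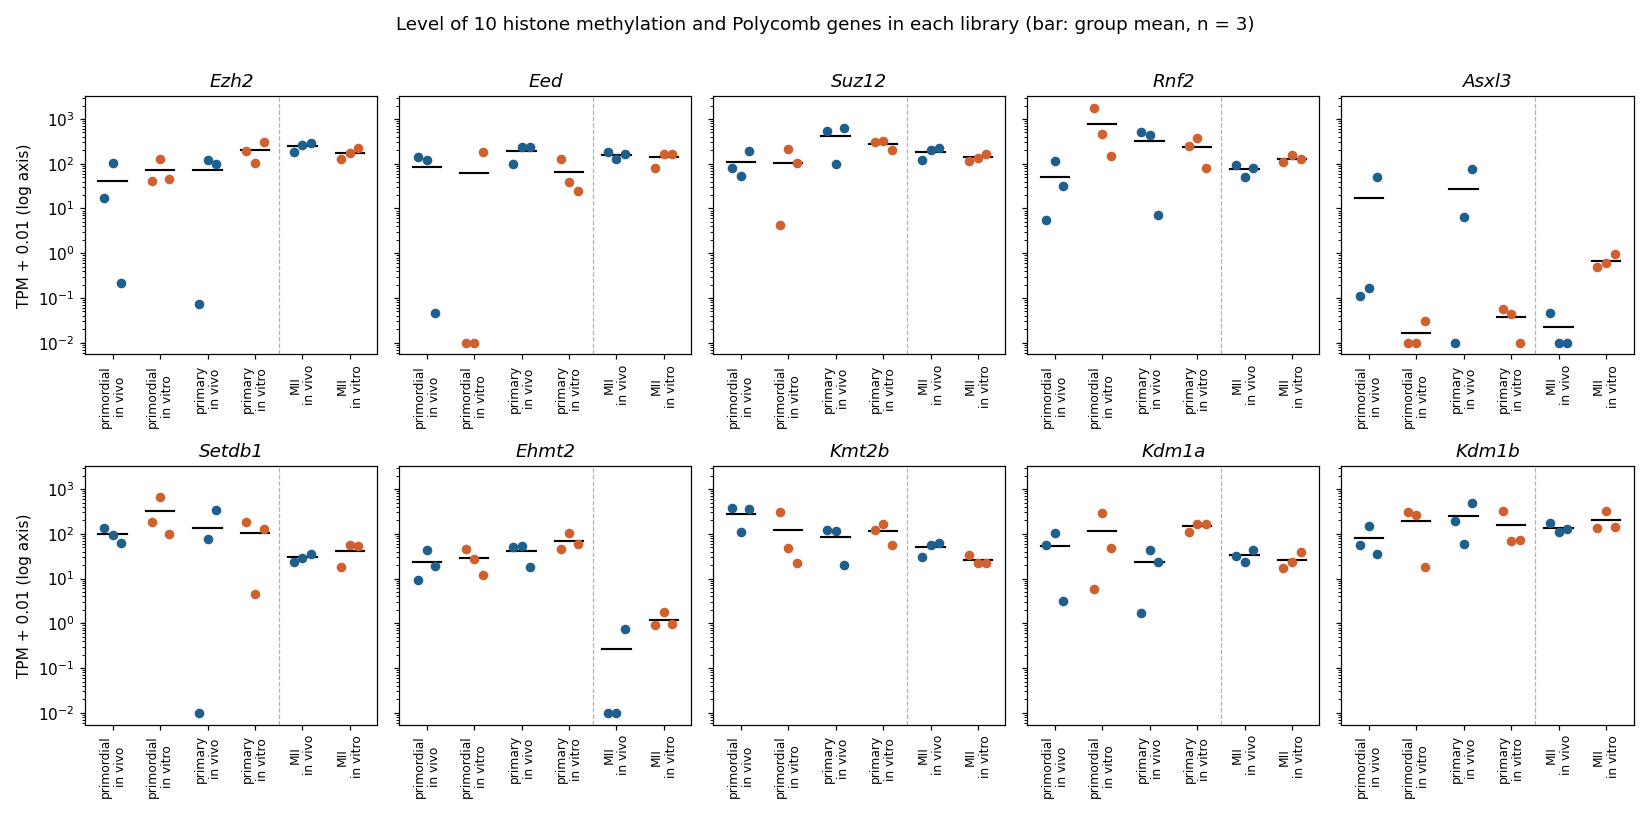
TPM plus 0.01 on a log axis for each of the 10 genes in the 18 libraries, 3 per group, with *in vivo* libraries in blue, *in vitro* libraries in orange and black bars for group means. Left of the dashed line single libraries lie far from the others of their group (*Ezh2* at 0.203 TPM in one primordial *in vivo* library and 106 TPM in another), whereas right of it the MII libraries of 8 genes lie close together, and *Ehmt2* and *Asxl3* lie low.

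*Ezh2*, the catalytic subunit of PRC2 (ENSMUSG00000029687, GRCm38 chromosome 6, 47530139 to 47595341, minus strand), had 17.5, 106 and 0.203 TPM in the primordial *in vivo* libraries and 40.9, 131 and 46.4 TPM in the primordial *in vitro* libraries. In oocytes of primary follicles it had 0.0646, 118 and 98.7 TPM *in vivo* and 192, 105 and 311 TPM *in vitro*. The MII libraries had 186, 258 and 289 TPM *in vivo* and 131, 174 and 225 TPM *in vitro*. The highest group mean was 244 ± 52.6 TPM (SD, n = 3) in MII *in vivo*, followed by 203 ± 103 TPM in primary *in vitro* and 177 ± 47.2 TPM in MII *in vitro*, whose ranges overlapped. Below them lay 72.6 ± 50.3 TPM in primordial *in vitro*, 72.3 ± 63.3 TPM in primary *in vivo* and 41.3 ± 56.9 TPM in primordial *in vivo*, which also overlapped. With counts scaled to the library total (CPM) in place of TPM, only 2 of the 6 groups kept their place in this order.

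*Eed* (ENSMUSG00000030619, chromosome 7, 89954654 to 89980983, minus strand) was the core PRC2 subunit most often at or under the floor, in 3 of 12 LCM libraries. It had 139, 120 and 0.0354 TPM in primordial *in vivo* libraries and 0, 0 and 188 TPM in primordial *in vitro* libraries. In primary follicle oocytes the level was 99.8, 233 and 237 TPM *in vivo* and 128, 39.2 and 24.3 TPM *in vitro*. These primary groups overlapped on the TPM scale and did not overlap after TMM normalization of the counts, which is the scale of the tests. The MII libraries lay between 82.0 and 184 TPM.

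*Suz12* (ENSMUSG00000017548, chromosome 11, 79993106 to 80034123, plus strand) was over the floor in all 18 libraries. It had 80.7, 52.0 and 198 TPM in primordial *in vivo* and 4.33, 210 and 104 TPM in primordial *in vitro* libraries, then 545, 98.2 and 629 TPM in primary *in vivo* and 305, 322 and 198 TPM in primary *in vitro* libraries. Its MII levels were 120 to 226 TPM *in vivo* and 117 to 169 TPM *in vitro*. The highest group mean was 424 ± 285 TPM in primary *in vivo*, and every neighbour in the order of the 6 means overlapped. All 3 core subunits were over the floor in 8 of 12 LCM libraries and in 6 of 6 MII libraries. Their summed level was 45.2 to 341 TPM in oocytes of primordial follicles and 450 to 965 TPM in oocytes of primary follicles, and in MII oocytes 330.0 to 677 TPM. The primordial and primary ranges of this sum, each over both conditions, did not overlap, whereas those of *Ezh2*, *Eed* and *Suz12* taken singly did. This sum was formed after the values were seen and was given no test.

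*Rnf2*, the catalytic RING subunit of PRC1 (ENSMUSG00000026484, chromosome 1, 151458004 to 151500955, minus strand), had the highest mean of the 10 genes over the LCM libraries, 350 TPM. It had 5.64, 116 and 32.6 TPM in primordial *in vivo* libraries and 1759, 456 and 149 TPM in primordial *in vitro* libraries. All 3 *in vitro* libraries lay above all 3 *in vivo* libraries. At the primary stage it had 522, 440 and 7.24 TPM *in vivo* and 245, 382 and 82.3 TPM *in vitro*, which overlapped. Among MII libraries it had 94.9, 49.3 and 80.8 TPM *in vivo* and 107, 155 and 130 TPM *in vitro*, again without overlap. The group means ran from 788 ± 855 TPM in primordial *in vitro* to 51.4 ± 57.5 TPM in primordial *in vivo*, the highest and the lowest of the 6. An exon of *Rnf2* shares bases with the protein-coding gene *Trmt1l* on the opposite strand. Since the strand setting of the counting is not given in the sources used here, reads of this pair cannot be told apart.

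*Setdb1* (ENSMUSG00000015697, chromosome 3, 95323525 to 95357202, minus strand), an H3K9 methyltransferase, had 136, 94.0 and 61.9 TPM in primordial *in vivo* and 181, 670 and 97.7 TPM in primordial *in vitro* libraries. At the primary stage it had 0, 75.9 and 335 TPM *in vivo* and 182, 4.50 and 126 TPM *in vitro*. MII oocytes had between 18.1 and 54.7 TPM, with 29.6 ± 6.13 TPM (SD, n = 3) *in vivo* and 41.8 ± 20.5 TPM *in vitro*. Exons of *Setdb1* overlap *Cers2* and *Gm37500* on the opposite strand.

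*Ehmt2* (ENSMUSG00000013787, chromosome 17, 34898469 to 34914052, plus strand), which encodes the other H3K9 methyltransferase, had levels that separated the LCM from the MII libraries. It had 9.17, 44.2 and 18.6 TPM in primordial *in vivo*, 46.2, 26.7 and 11.9 TPM in primordial *in vitro*, 49.6, 54.1 and 18.2 TPM in primary *in vivo* and 46.7, 106 and 59.1 TPM in primary *in vitro* libraries. In MII oocytes it had 0, 0 and 0.754 TPM *in vivo* and 0.906, 1.76 and 0.950 TPM *in vitro*. The highest MII library thus lay under the lowest LCM library. The reads behind the MII values were 0, 0 and 14 counts *in vivo* and 21, 34 and 17 counts *in vitro*.

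*Kmt2b* (ENSMUSG00000006307, chromosome 7, 30568858 to 30588726, minus strand), the H3K4 methyltransferase, had 379, 111 and 360 TPM in primordial *in vivo* and 300, 49.0 and 22.4 TPM in primordial *in vitro* libraries. The primary libraries had 119, 117 and 19.7 TPM *in vivo* and 124, 162 and 55.7 TPM *in vitro*. The levels in MII oocytes were 30.5, 57.2 and 60.9 TPM *in vivo* and 34.3, 21.8 and 22.7 TPM *in vitro*. Its highest group mean was 284 ± 149 TPM in primordial *in vivo* and its lowest 26.3 ± 7.01 TPM in MII *in vitro*, and each neighbour in the order overlapped. No annotated gene overlaps *Kmt2b* or *Ehmt2*.

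*Kdm1a* (ENSMUSG00000036940, chromosome 4, 136550540 to 136602723, minus strand) encodes a demethylase of H3K4 that acts with the CoREST corepressor. It had 56.3, 103 and 3.06 TPM in primordial *in vivo* and 5.77, 284 and 47.8 TPM in primordial *in vitro* libraries. In oocytes of primary follicles it had 1.69, 43.4 and 23.6 TPM *in vivo* and 110, 169 and 165 TPM *in vitro*, and these groups did not overlap. Its MII levels were 22.9 to 43.3 TPM *in vivo* and 16.8 to 39.7 TPM *in vitro*.

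*Kdm1b* (ENSMUSG00000038080, chromosome 13, 47043499 to 47085279, plus strand), the related demethylase known for its role in oocytes, was over the floor in all 18 libraries. It had 55.0, 151 and 36.2 TPM in primordial *in vivo*, 313, 260 and 17.8 TPM in primordial *in vitro*, 193, 60.4 and 481 TPM in primary *in vivo* and 321, 69.2 and 71.2 TPM in primary *in vitro* libraries. In MII oocytes it had 171, 110 and 125 TPM *in vivo* and 132, 329 and 145 TPM *in vitro*. All neighbours in the order of its 6 group means overlapped, and only 2 of the 6 kept their place with CPM in place of TPM. Exons of *Kdm1b* overlap *Dek* on the opposite strand. Exons of *Ezh2*, *Eed* and *Suz12* overlap noncoding genes on the opposite strand, *Gm26625*, *E230029C05Rik* and *Gm26563*.

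TPM is scaled for length, and genes that encode related enzymes were set side by side within a library on this scale. The RNA of the LCM libraries was amplified. Differences between genes in amplification or capture were not tested in the LCM or the MII libraries. *Kdm1b* was above *Kdm1a* in 7 of 12 LCM libraries and in 6 of 6 MII libraries, where the median ratio was 5.02 (range 2.90 to 14.2). *Ezh2* was above *Ezh1*, the other catalytic PRC2 subunit, in 10 of 12 and 6 of 6. *Rnf2* was above *Ring1*, the other RING subunit of PRC1, in 12 of 12 and 6 of 6, and *Ring1* had 0 TPM in 5 of 6 MII libraries. *Setdb1* was above *Ehmt2* in 10 of 12 and 6 of 6.

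The order of *Ehmt2* and *Ehmt1*, whose proteins (G9a and GLP) act as a pair, was opposite in the 2 kinds of library. *Ehmt2* was higher in 12 of 12 LCM libraries, with means of 40.8 ± 26.8 TPM and 7.28 ± 7.54 TPM (SD, n = 12), and in 0 of 6 MII libraries, with means of 0.728 ± 0.664 TPM and 19.1 ± 6.07 TPM (SD, n = 6). *Kmt2b* was above *Kmt2a* in 10 of 12 LCM and 6 of 6 MII libraries, and above *Kmt2d* in 2 of 12 and 0 of 6. *Asxl1* was above *Asxl3* in 12 of 12 and 6 of 6, and *Asxl2* above *Asxl3* in 9 of 12 and 6 of 6. These are descriptions of levels, and stage and library preparation cannot be told apart in them.

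**Figure D2:**
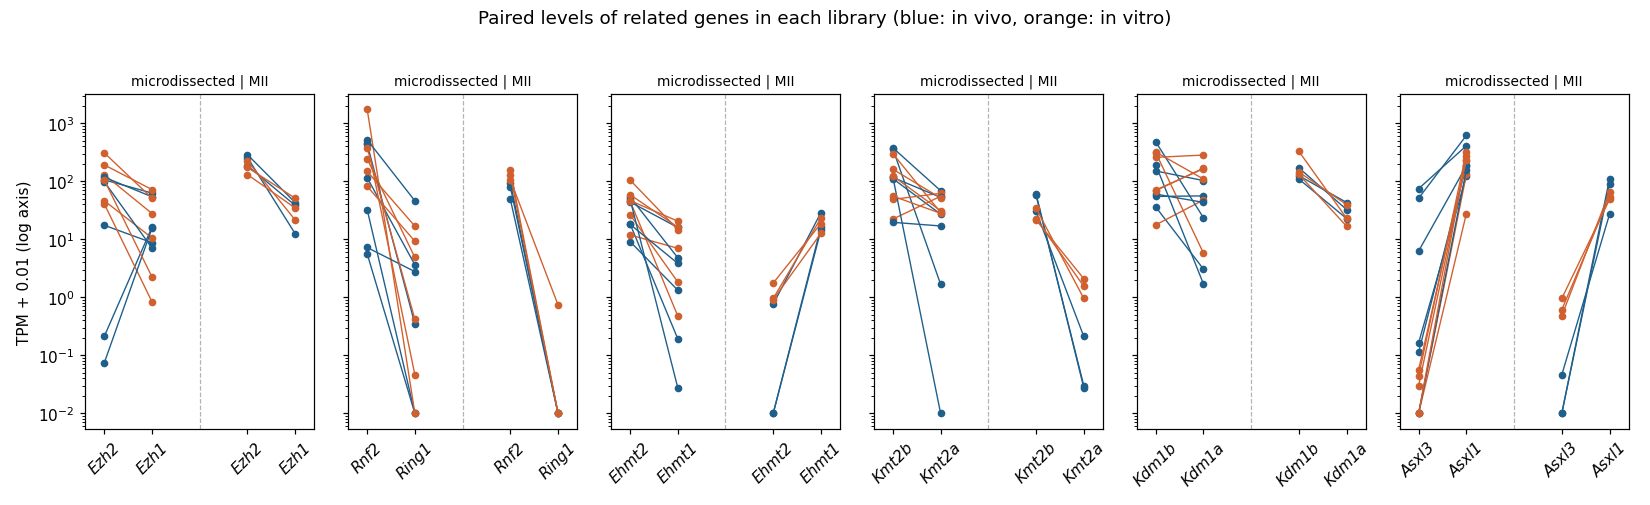
TPM plus 0.01 on a log axis for 6 pairs of related genes, with a line for each library, microdissected libraries left and MII libraries right of the dashed line, *in vivo* in blue and *in vitro* in orange. The lines from *Ehmt2* to *Ehmt1* fall in all 12 microdissected libraries and rise in all 6 MII libraries.

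Whether ovary culture changed the levels in oocytes of primordial follicles was asked by comparing cultured with non-cultured ovaries. *Rnf2* stood furthest from 0, and none of the 9 genes passed the threshold of an adjusted p under 0.05 and a fold of 2. *Rnf2* had 34246, 16029 and 3963 counts *in vitro* and 160, 3375 and 993 counts *in vivo*, a log2 fold change of 4.14 (SE 1.85). Its p was 0.025 before adjustment and 0.363 after it by the quasi-likelihood test of edgeR (Benjamini-Hochberg), and DESeq2 gave an adjusted p of 0.0798. It was higher in 3 of 3 *in vitro* libraries than in any *in vivo* library. The log2 fold changes of the other 8 lay between -1.17 (SE 1.65) for *Kmt2b* and 1.78 (SE 1.83) for *Setdb1*, and their groups overlapped. Leaving out *in vitro* library 1 changed the value of *Rnf2* to 2.68 and that of *Kmt2b* to -3.06, and without *in vitro* library 3 that of *Kmt2b* was -0.67. An exact permutation test of 3 against 3 libraries gives a p of 0.1 at the smallest.

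DESeq2 called 0 of the 9 genes at the primordial stage, beside 812 of all 15317 genes. By edgeR 0 of the 9 were called, beside 0.0326% of all genes tested. At an unadjusted p under 0.05 there was 1 of 9, *Rnf2*, beside 11.7% of all genes. Groups that do not overlap were seen for 1 of 9 genes, beside 6.59% of all genes. The median log2 fold change of the 9 genes was 1.07, with 6 above and 3 below 0, and the median over all genes was 0. *Kmt2b* and *Rnf2* had the smallest estimated biological coefficients of variation of the 9 in the LCM fit, 1.54 each, against 2.02 for the common value over all genes. The SEs of the 9 log2 fold changes at this stage ran from 1.65 to 2.63.

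In oocytes of primary follicles *Kdm1a* had the highest *in vitro* to *in vivo* log2 fold change of the 9 and *Eed* the lowest, and neither passed the test. *Kdm1a* had 3926, 6626 and 6876 counts *in vitro* and 61, 1643 and 625 counts *in vivo*, a log2 fold change of 2.60 (SE 2.43, adjusted p = 0.837 by edgeR). *Eed* had 3389, 1136 and 749 counts *in vitro* and 2656, 6526 and 4649 counts *in vivo*, a log2 fold change of -1.88 (SE 2.44, adjusted p = 0.939 by edgeR). After TMM normalization the groups of both genes did not overlap, *Kdm1a* being higher and *Eed* lower in 3 of 3 *in vitro* libraries. These were 2 of 9 genes, beside 9.99% of all genes. Both DESeq2 and edgeR called 0 of 9 genes, beside 254 of all 15317 genes by DESeq2 and 0% of them by edgeR. At an unadjusted p under 0.05 by edgeR there were 0 of 9. Of all genes 9.66% had an unadjusted p under 0.05. The granulosa marker sums of these groups did not overlap either, as given above, and their part was not tested. *In vivo* library 1 had the fewest genes over the floor, 4842, and *in vivo* library 2 the highest theca and stroma sum, 29938 TPM. The log2 fold change of *Kdm1a* was 2.06 without the first and 3.48 without the second of these. That of *Eed* was -2.08 without *in vivo* library 1, and on leaving out single libraries ran from -2.63 without *in vitro* library 1 to -1.49 without *in vitro* library 3. *Rnf2* had a log2 fold change of -0.78 (SE 1.64) at this stage. The median over the 9 genes was -0.65, with 4 above and 5 below 0, whereas the median over all genes was 0.44.

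The difference between the culture effects at the 2 stages was tested as an interaction of condition and stage, in which a negative value is a lower *in vitro* to *in vivo* ratio at the primary stage. For *Rnf2* it was -4.92 (SE 2.43) on the log2 scale, with a p of 0.0427 before and 0.409 after adjustment by edgeR. For the other 8 genes it lay between -2.50 (SE 2.67) for *Kdm1b* and 1.35 (SE 3.26) for *Kdm1a*. Without primordial *in vivo* library 2 the value was -5.98 for *Rnf2* and 0.60 for *Kdm1a*. It was -3.45 for *Rnf2* without primordial *in vitro* library 1, and 3.42 for *Kdm1a* without primordial *in vitro* library 2. None of the 9 was called by either tool, beside 0.104% of all genes by edgeR and 554 of 15317 by DESeq2.

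**Figure D3:**
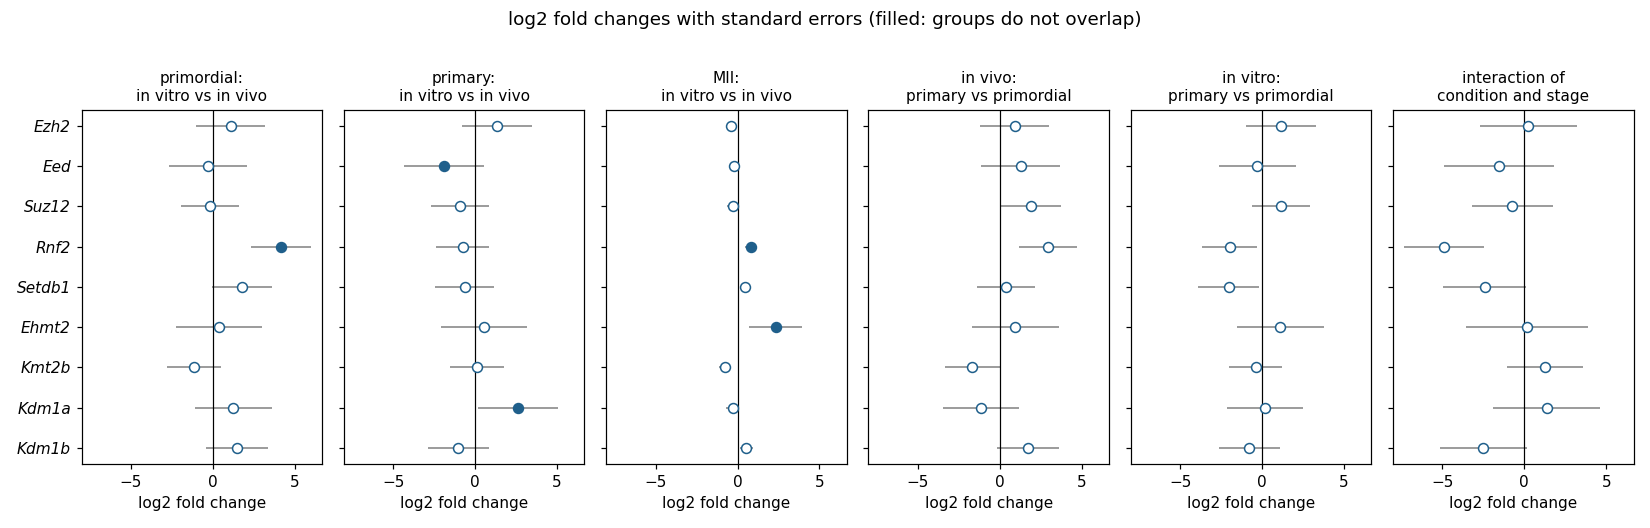
log2 fold changes of 9 genes (points) with their standard errors (bars) in the 6 comparisons fitted with edgeR, *in vitro* over *in vivo*, primary over primordial stage, or the interaction; filled points mark groups that do not overlap. *Rnf2* lies at 4.14 in oocytes of primordial follicles and at 0.82 in MII oocytes, and the bars of the MII comparison are the shortest for each of the 9 genes.

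The stages were compared within each condition. *In vivo*, *Rnf2* had the highest value of the 9, a log2 fold change from the primordial to the primary stage of 2.94 (SE 1.75), which did not pass (adjusted p = 0.495 by edgeR). *Suz12* had 1.91 (SE 1.81), *Kdm1b* 1.72 (SE 1.91) and *Kmt2b*, the lowest, -1.67 (SE 1.67). Leaving out single libraries gave 2.14 (without primary library 1) to 4.01 (without primordial library 2) for *Rnf2*, and -2.23 (without primary library 1) to -1.18 (without primary library 3) for *Kmt2b*. The median of the 9 was 0.94, with 7 above and 2 below 0. Both tools called 0 of the 9 genes, beside 0.0522% of all genes by edgeR and 557 of 15317 by DESeq2. Of the 9 genes 0 had an unadjusted p under 0.05 by edgeR, beside 11.2% of all genes. The groups of all 9 genes overlapped, beside 6.39% of all genes whose groups did not.

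In the *in vitro* groups the primary stage gave the highest value for *Ezh2*, 1.16 (SE 2.11) on the log2 scale, and the lowest for *Setdb1*, -2.04 (SE 1.85). *Rnf2* had -1.97 (SE 1.69). On leaving out single libraries *Ezh2* ran from 0.75 (without primary library 3) to 1.87 (without primordial library 2), and *Setdb1* from -2.63 (without primary library 1) to -0.90 (without primordial library 2). Called were 0 of the 9 by both tools, beside 0% of all genes by edgeR and 450 of 15317 by DESeq2. At an unadjusted p under 0.05 by edgeR there were 0 of the 9, beside 10.9% of all genes. The groups overlapped for all 9, beside 11.2% of all genes whose groups did not. The median of the 9 was -0.29 and that over all genes 0.44. The comparisons of stages and of conditions share libraries, and each comparison's values are therefore its own description.

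In MII oocytes the replicates lay closer and the values of the 9 genes were correspondingly more precise, and again none was called. *Rnf2* had 1865, 2258 and 1743 counts *in vitro* and 1391, 607 and 1128 counts *in vivo*. Its log2 fold change was 0.82 (SE 0.35), with a p of 0.0364 before and 0.461 after adjustment by edgeR, and all 3 *in vitro* libraries lay above all *in vivo* libraries. *Ehmt2* had a log2 fold change of 2.34 (SE 1.61, adjusted p = 0.622 by edgeR) from the few counts given above, also without overlap. *Kmt2b* had 1392, 736 and 709 counts *in vitro* and 1041, 1637 and 1977 counts *in vivo*, a log2 fold change of -0.76 (SE 0.39, adjusted p = 0.504 by edgeR).

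The PRC2 subunits had small differences in MII oocytes. The log2 fold change was -0.41 (SE 0.32) for *Ezh2*, -0.21 (SE 0.33) for *Eed* and -0.29 (SE 0.32) for *Suz12*. Without *in vivo* library 1 the value of *Eed* was 0.0225. *Setdb1* had 0.49 (SE 0.36), *Kdm1a* -0.28 (SE 0.39) and *Kdm1b* 0.55 (SE 0.38). Of the 9 genes 0 were called by edgeR, beside 0.35% of all genes, and 0 by DESeq2, beside 351 of 17144 genes. The unadjusted p was under 0.05 for 1 of 9, beside 10.2% of all genes. Groups without overlap were found for 2 of 9 genes, beside 16.2% of all genes. The median of the 9 was -0.21 and that over all genes 0.04.

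*Asxl3* (ENSMUSG00000045215, chromosome 18, 22344883 to 22530227, plus strand), a partner of the deubiquitinase BAP1, had 11, 17 and 5868 counts in primordial *in vivo* libraries and 0, 0 and 2 counts in primordial *in vitro* libraries. At the primary stage it had 0, 713 and 5955 counts *in vivo* and 5, 4 and 0 counts *in vitro*. In MII oocytes it had 2, 0 and 0 counts *in vivo* and 31, 33 and 48 counts *in vitro*. The primordial and MII groups did not overlap and the primary groups did. In each early *in vivo* group one library held nearly all of its TPM, 99.5% at the primordial and 92.3% at the primary stage.

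Against the floor of 3 counts per library, the mean CPM of *Asxl3* was at least 552-fold lower *in vitro* at the primordial stage, and at least 3.97-fold lower without *in vivo* library 3, the highest, which was left out after its value was seen. At the primary stage the mean was 118 CPM *in vivo* and 0.129 CPM *in vitro*, the latter no higher than the floor, and no fold is given. In MII oocytes it was at least 11.4-fold higher *in vitro*, and at least 9.37-fold higher without *in vitro* library 3. The levels behind the MII fold were low, 0.674 ± 0.246 TPM (SD, n = 3) *in vitro*. *Asxl1* had 56.2 ± 8.81 TPM in the same libraries.

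The other 90 genes of 7 lists drawn up for these pathways were tested in the same fits. edgeR called 0 of them in each of the 6 comparisons. DESeq2 called 2 at the primordial stage, 2 between the stages *in vivo*, 2 in MII oocytes and 0 in the other 3 comparisons. Over all genes DESeq2 called 812 of 15317 at the primordial stage, 557 between the stages *in vivo* and 351 of 17144 in MII oocytes. In the other 3 it called 254 at the primary stage, 450 between the stages *in vitro* and 554 for the interaction. At an unadjusted p under 0.05 by edgeR there were 4 of 90 at the primordial stage, 3 at the primary stage, 3 between the stages *in vivo*, 1 between them *in vitro*, 2 for the interaction and 8 of 84 tested in MII oocytes. Of all genes this held for 11.7%, 9.66%, 11.2%, 10.9%, 11.5% and 10.2% in the same order. Of the 10 other PRC2 genes 8 of the 9 tested had a log2 fold change above 0 in MII oocytes, with a median of 0.23. Of the 22 other PRC1 genes 10 of the 18 tested did, with a median of 0.06. For the 11 H3K9 genes 4 of 11 did (median -0.08), and for the 11 H3K4 genes 5 of 11 (median -0.10). Of the genes of H3K36, H3K79 and H4K20 methylation 3 of 8 did (median -0.23), of the BAP1 partners 6 of 9 (median 0.33), and of the other demethylases and CoREST genes 8 of 18 (median -0.10). The median over all genes in MII oocytes was 0.04. Of the 10 other PRC2 genes 6 were above 0 at the primordial stage and 5 at the primary stage. Between the stages 6 were above 0 *in vivo* and 6 *in vitro*, and for the interaction 3.

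The genes of these lists with the smallest p were *Men1*, a subunit shared by KMT2A and KMT2B complexes, *Kmt5a*, an H4K20 methyltransferase, and *Jmjd1c*, a Jumonji protein, at the primordial stage. *Men1* had 0, 5603 and 14584 counts *in vitro* and 0, 25 and 4 counts *in vivo*, a log2 fold change of 9.62 (SE 3.09, adjusted p = 0.359 by edgeR and 0.00454 by DESeq2). *Jmjd1c* had 0, 31 and 163 counts *in vitro* and 3785, 10171 and 8217 counts *in vivo*, a log2 fold change of -6.74 (SE 2.91, adjusted p = 0.359 by edgeR and 0.0176 by DESeq2). Only *Jmjd1c* of the 3 had groups that do not overlap, as had 8 of the 90 genes of the lists and 6.59% of all genes. *Kmt5a*, with a value of 7.66 (SE 2.96, adjusted p = 0.359 by edgeR), had 0, 14140 and 10 counts *in vitro* and 0, 19 and 36 counts *in vivo*.

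At the primary stage they were *Rbbp5*, a COMPASS subunit, with a log2 fold change of -4.95 (SE 2.01), *Epop*, a PRC2 partner with reads in one library only (672 counts), and *Yaf2*, a PRC1 subunit with 0, 211 and 116 counts *in vitro* and 0, 0 and 0 counts *in vivo*. Their adjusted p was 0.44 each by edgeR. Between the stages *in vivo* they were *Kmt5a*, *Men1* and *Trim28*, the corepressor that brings SETDB1 to its targets. *Trim28* had 19520, 3024 and 4636 counts at the primary and 142, 1246 and 2 counts at the primordial stage, a log2 fold change of 4.85 (SE 2.36, adjusted p = 0.426 by edgeR and 0.0253 by DESeq2). *Epop*, *Pcgf5* and *Jmjd1c* had the smallest p between the stages *in vitro*, with adjusted p from 0.384 to 0.505 by edgeR. *Kmt5a*, *Men1* and *Trim28* had the smallest p of the interaction.

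In MII oocytes the gene of the lists with the smallest p was *Kmt2a*, the methyltransferase closest in kind to *Kmt2b*. It had 67, 123 and 84 counts *in vitro* and 12, 1 and 1 counts *in vivo*, a log2 fold change of 4.10 (SE 1.01, adjusted p = 0.142 by edgeR and 0.00291 by DESeq2). *Cbx7*, a PRC1 subunit that reads methylated H3K27, had 99, 51 and 15 counts *in vitro* and 0, 0 and 6 counts *in vivo* (adjusted p = 0.256 by edgeR and 0.0193 by DESeq2). *Pcgf3*, another PRC1 subunit, had 263, 222 and 72 counts *in vitro* and 54, 36 and 48 counts *in vivo* (adjusted p = 0.284 by edgeR and 0.0636 by DESeq2). All 3 had groups that do not overlap and were higher in 3 of 3 *in vitro* libraries, but they were picked by their p in this comparison. Of the 84 genes of the lists tested 13 had groups that do not overlap, beside 16.2% of all genes.

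Over the 12 LCM libraries, the log2 TPM (pseudocount 1) of the 10 genes was compared pair by pair. The highest Pearson correlation of the 45 pairs was 0.84 between *Ezh2* and *Kdm1a* and the lowest -0.52 between *Rnf2* and *Asxl3*. *Rnf2* and *Ehmt2* had 0.66. The PRC2 subunits had 0.22 for *Ezh2* and *Eed*, -0.10 for *Ezh2* and *Suz12* and 0.36 for *Eed* and *Suz12*. These values describe 12 libraries that share their preparation and differ in depth and in the number of genes found.

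Among 10703 genes with a mean of at least 1 TPM, the patterns most like that of *Rnf2* were *Pdcd6ip* (r = 0.87), *Prr12* (0.85) and *Arpc1b* (0.84). Without the 2 libraries farthest from the median of *Rnf2* the values were 0.80, 0.69 and 0.69. The patterns most like that of *Asxl3* were *Crocc* (0.96), *Fdx2* (0.93) and *Stx11* (0.92), and without the 2 farthest libraries 0.82, 0.84 and -0.06. The likeness of *Stx11* to *Asxl3* therefore rested on those 2 libraries. Among the libraries left, *Asxl3* had 6.29 TPM in primary *in vivo* library 2 and at most 0.155 TPM in the others. Nearly all of its spread there came from that library, so the values left for *Crocc* and *Fdx2* rest largely on it. Spearman's rho with *Asxl3* over the 12 libraries was 0.79 for *Crocc*, 0.48 for *Fdx2* and 0.77 for *Stx11*.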

How the data were processed

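The authors trimmed the reads with Trim Galore (0.4.1 in the submitters' processing notes), mapped them to mm10 with TopHat2, counted them per gene with featureCounts and deposited the read counts without normalization. They also deposited TPM values, which take gene length and depth into account, for 28252 of the genes. The strand setting of the counting and the treatment of multi-mapping reads are not given in the sources used here. The 10 genes and the gene lists were chosen with earlier results of these data known. The 10 genes were named in every comparison, of the lists the genes called and the 3 with the smallest p in each comparison, and the 3 genes with the patterns most like *Asxl3* and *Rnf2*. The related genes set beside them within a library were added outside this rule. Gene coordinates and overlapping genes came from GENCODE release M21, and promoter windows from RefSeq.

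Groups and replicate numbers were taken from the sample labels. TMM-normalized counts were tested with the robust quasi-likelihood fit of edgeR 4.0.16 (R 4.3.3), once for the 12 LCM libraries and once for the 6 MII libraries, after dropping genes whose counts summed to under 10 in the fit. Calls needed an adjusted p (Benjamini-Hochberg, over all genes of the fit) under 0.05 and a fold of at least 2. The scripts were tested on simulated data. Positive values are higher *in vitro*, or at the primary stage. Each SE is the absolute log2 fold change divided by the square root of the F statistic of its test. It thus follows from the test and was not estimated on its own. Groups were said not to overlap where all 3 TMM-normalized values of one lay above those of the other. Likeness of patterns was Pearson's r of log2(TPM + 1). Library totals ran from 7334817 to 29205503 counts, at which the floor of 3 counts is 0.103 to 0.409 CPM. Floors cover counting error only. No replicate pair agreed within sampling noise: the smallest chi-square per degree of freedom between replicates was 29.4.

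The alternatives were DESeq2 1.42.0 with its defaults, DESeq2's size factors in edgeR, other filters on low counts, no fold threshold, the replicate number as a block, fits of only the 2 groups compared, each library left out in turn, another pseudocount, no filter on low TPM, and CPM in place of TPM.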

Additional observations from a re-analysis of the deposited data

Results flagged for a closer look

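*Asxl3* differed in opposite directions between stages. At the primordial stage all 3 *in vitro* libraries lay under all 3 *in vivo* libraries, with a mean of 0.00667 TPM *in vitro* against 17.2 ± 29.5 TPM (SD, n = 3) *in vivo*. Of the *in vivo* TPM 99.5% was in library 3, and the others had 0.103 and 0.155 TPM. In MII oocytes all 3 *in vitro* libraries lay above all *in vivo* libraries, with a mean of 0.674 TPM *in vitro* against 0.0121 TPM *in vivo*. These MII values came from 31, 33 and 48 counts *in vitro* and 2, 0 and 0 counts *in vivo*. The MII libraries were also prepared in another way than the LCM libraries. The difference between the stages was not tested, since *Asxl3* was chosen by these values. Groups of 3 libraries are too small for a rule on single libraries that stand apart.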

How the results depend on the processing

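Of the 9 tested genes, 0 were called in each of the 6 comparisons under every alternative run, leaving out each library included (range 0 to 0), and with the replicate number as a block 0 were called. Deviations of same-numbered libraries from their groups were hardly correlated, with r of -0.07 to 0.09 for LCM (18 pairs) and -0.02 to 0.02 for MII (3 pairs). Given the wide spread between LCM libraries and the few MII pairs, this check cannot decide whether equal numbers mark paired samples. Alternatives were set beside 19 of the printed fold changes, the 9 of MII oocytes and the highest and lowest of each other comparison. Of their 296 values 295 kept their direction and side of the threshold, and the lowest adjusted p was 0.0750 by edgeR. The other fold changes printed were not in this count. The exception was *Eed* in MII oocytes, which ranged from -0.36 to 0.0225 on leaving out single libraries and changed sign without *in vivo* library 1. *Rnf2* ranged from 2.68 to 5.21 at the primordial stage and from 0.56 to 1.14 in MII oocytes, and *Ehmt2* in MII oocytes from 1.77 to 7.51, the last without *in vivo* library 3, which leaves 0 counts in that group. The number of all genes called depended on the tool. In the order primordial, primary, stages *in vivo*, stages *in vitro*, interaction and MII, edgeR called 5, 0, 8, 0, 16 and 60, DESeq2 called 812, 254, 557, 450, 554 and 351, edgeR with the block 1, 0, 0, 0, 0 and 85, and without the filter on low counts 0, 0, 0, 0, 1 and 263. With at least 10 counts in 3 libraries it called 0 in each LCM comparison and 44 in MII oocytes. With only the 2 groups compared it called 9, 5, 3 and 0 in the first 4, and with DESeq2's size factors 1 at the primary stage. Leaving out single libraries gave 0 to 13, 0 to 4, 0 to 11, 0 to 2, 0 to 20 and 11 to 378, the last pair without MII *in vitro* library 3 and without MII *in vivo* library 1. The causes were not tested. The 3 genes most like *Rnf2* and *Asxl3* kept 2 and 1 of 3 with a pseudocount of 0.1, and 3 and 1 of 3 without the TPM filter. Between LCM libraries the spread limits what can be seen: the SE of the log2 fold changes of these 9 genes was at least 1.63.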
